A study of Canis lupus familiaris with 10 samples.

Results

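Fc receptors are proteins that bind the constant part of antibodies. The genes described here were chosen by name, as a list of 8 Fc receptor genes: FCER1A, FCER1G, FCER2, FCGR1A, FCGR2B, FCGR3A, FCGRT and FCAMR. Of these, 5 had a row among the 23266 gene symbols of the table, namely FCER1A, FCER1G, FCER2, FCGR1A and FCGRT. FCGR2B, FCGR3A and FCAMR were not analysed here, so the inhibitory IgG receptor could not be set against an activating one. All 5 genes with a row passed the filter on low values (5 or more libraries with a value of 10 or higher), as did 12397 genes in all. FCER1A, FCER1G and FCGRT reached that value in each of the 10 libraries, and FCER2 and FCGR1A in 9.

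Gene expression was measured by QuantSeq 3′, which sequences a single short fragment at the polyadenylated end of each transcript, in formalin-fixed, paraffin-embedded (FFPE) canine cutaneous histiocytoma (CCH). The cells of this tumor belong to the Langerhans cell lineage, and the tumor usually disappears without treatment. The early group comprised 5 tumors of histological group 1, a stage without lymphocytes, and the late group 5 tumors of group 3, labeled as enriched in lymphocytes. The tumors had been removed from pet dogs aged 0.5 to 5 years in the early group (age given for 4 of 5) and 1.5 to 9 years in the late group, no treatment is given in the labels, and each library represents entire cross sections of a single tumor. According to the methods, tissue next to the tumor was trimmed away. A library can therefore hold RNA of tumor cells, infiltrating cells and vessels together, and keratinocyte genes were measured in every library. In such bulk samples, fewer cells of a type and less RNA per cell cannot be told apart.

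Reads assigned to genes ranged from 3132916 to 4439709 per early and from 2973125 to 3230455 per late library. RNA quality in the labels, given as the DV200 share of longer fragments, was 68.5% ± 2.46 in early and 73.2% ± 2.09 in late CCH (SD, n = 5 each). Each RNA extraction batch of the study held tumors of a single stage, so the effects of batch and stage cannot be told apart. All values below are normalized read counts, the reads of a gene divided by the size factor of its library. A count of 0 allows up to 3 reads, a value of 2.36 to 3.22. Because QuantSeq 3′ counts do not grow with transcript length, levels of different genes are set side by side on this scale. The study extended gene annotations at the 3′ end because some were too short. Comparisons between genes are therefore of read counts, not of transcript numbers. The library numbers 1 to 5 of a stage are names and carry no order.

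IgE and IgG bind different receptors of this family. The high-affinity IgE receptor is built from the IgE-binding alpha chain (FCER1A), a beta chain (MS4A2) that amplifies the signal and is found in mast cells and basophils, and a dimer of the gamma chain (FCER1G), which signals for several other receptors as well. Mast cells and basophils carry it with the beta chain, while Langerhans cells and other dendritic cells of the skin can carry it without. FCER2 encodes CD23, the low-affinity IgE receptor, a C-type lectin of B cells, follicular dendritic cells and activated myeloid cells. FCGR1A encodes the high-affinity IgG receptor CD64 of macrophages, which signals through FCER1G. FCGRT encodes the heavy chain of the neonatal Fc receptor, which pairs with beta-2 microglobulin (B2M) and rescues IgG and albumin from degradation inside cells.

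Among these genes only FCER1A passed the test between the stages, and it was lower in late CCH. In early CCH, FCER1A reached a normalized read count of 46.6, 72.6, 74.2, 150.4 and 229.7 in libraries 1 to 5. In late CCH the values were 21.9, 14.3, 15.5, 25.6 and 10.5. Every late value lay below every early value, with the highest late library at 25.6 and the lowest early library at 46.6. The mean was 115 ± 75.1 in early and 17.5 ± 6.08 in late CCH (SD, n = 5 each), so that the early mean was 6.54 times the late mean. The log2 fold change (log2FC), which is the late minus the early mean of log2(value + 1), was -2.47 ± 0.42 (SE), with a 95% interval of -3.38 to -1.56. The p-value of limma after Benjamini-Yekutieli (BY) adjustment over all genes tested was 0.0401 (6.26e-05 unadjusted).

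A gene was called when the BY-adjusted p was at most 0.05 and the log2FC at least 1 in size. Thus 1 of the 5 Fc receptor genes was called lower and 0 higher in late CCH. Of all genes tested, 1.11% were called lower and 1.06% higher, together 2.17%. The late values of 6.05% of all genes lay wholly below the early values, and those of 5.91% wholly above. At an unadjusted p of at most 0.05, 2 Fc receptor genes were lower (FCER1A and FCER1G) and 1 was higher (FCGRT), where 30.9% of all genes passed in either direction. At 88 reads in the 5 late libraries against 614 in the 5 early ones, FCER1A was called in all 10 alternatives of scaling, filter, pseudocount, adjustment and tool. It was the only Fc receptor gene called by edgeR, which called 0.774% of all genes lower and 0.653% higher (1.43% in all), and by DESeq2, which called 2.67% lower and 3.88% higher (6.54% in all). Its adjusted p was close to the threshold, and in 9 of the 10 fits that left out a library the call was lost (adjusted p up to 0.112), with the log2FC staying between -2.73 and -2.16. The call held only without early library 1 (adjusted p 0.0430).

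**Figure D1:**
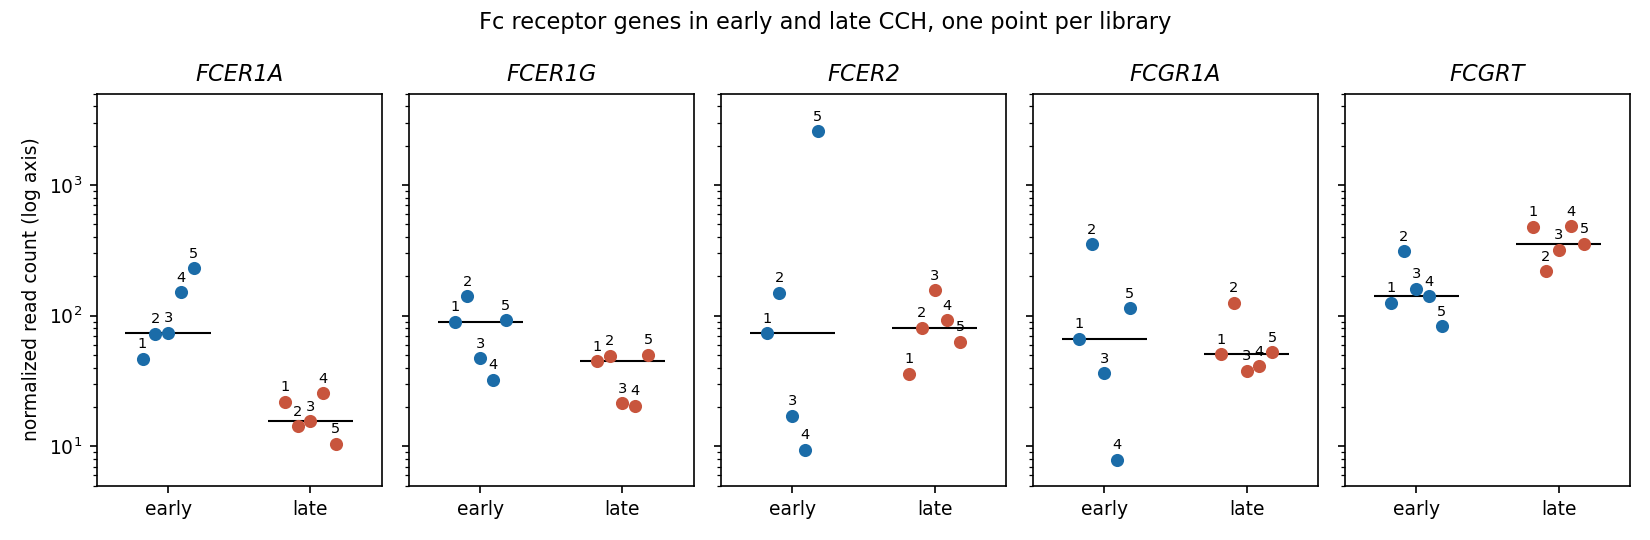
Normalized read counts (log axis) of the 5 Fc receptor genes in the 5 early (blue) and 5 late (red) libraries. Each point is a library with its number and each horizontal line is the median of a stage. FCER1A has its 5 late values (10.5 to 25.6) below its 5 early values (46.6 to 229.7), while the stages overlap for the other 4 genes.

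The partner chains of the IgE receptor were lower on average in late CCH too, but did not pass the test. FCER1G reached 89.5, 141, 47.0, 32.3 and 92.3 in early libraries 1 to 5 and 44.7, 49.5, 21.3, 20.5 and 50.4 in late libraries 1 to 5. The stages overlapped, since early libraries 3 and 4 lay within the range of the late ones. The log2FC was -1.02 ± 0.42 (95% interval -1.93 to -0.10), with an adjusted p of 1. MS4A2 was the scarcest chain by the mean of each stage, at 40.9, 31.6, 9.95, 9.45 and 23.6 in early and 2.98, 16.2, 1.94, 8.18 and 10.5 in late CCH. Its log2FC of -1.50 ± 0.62 had an adjusted p of 1. With 40 reads in all late libraries together, MS4A2 was near the limit of a count of 0 in late libraries 1 and 3.

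The ratio of the alpha to the gamma chain varied from library to library. FCER1A was at 0.521, 0.513, 1.58, 4.66 and 2.49 times the level of FCER1G in early libraries 1 to 5. In late libraries 1 to 5 the ratio was 0.489, 0.288, 0.727, 1.25 and 0.208. By read count, the alpha chain was thus above the gamma chain in early libraries 3, 4 and 5 and in late library 4. On the log2(value + 1) scale, FCER1A minus FCER1G was 0.45 ± 1.38 in early and -1.0 ± 0.99 in late CCH (SD, n = 5 each). The difference between stages of -1.45 did not pass an exact two-sided permutation test over all assignments of the stage labels (p = 0.103, smallest possible 0.00794). A larger fall of the alpha than of the gamma chain was therefore not shown. FCER1A minus MS4A2 was 2.24 ± 1.52 in early and 1.27 ± 1.30 in late CCH, given without a test.

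**Figure D2:**
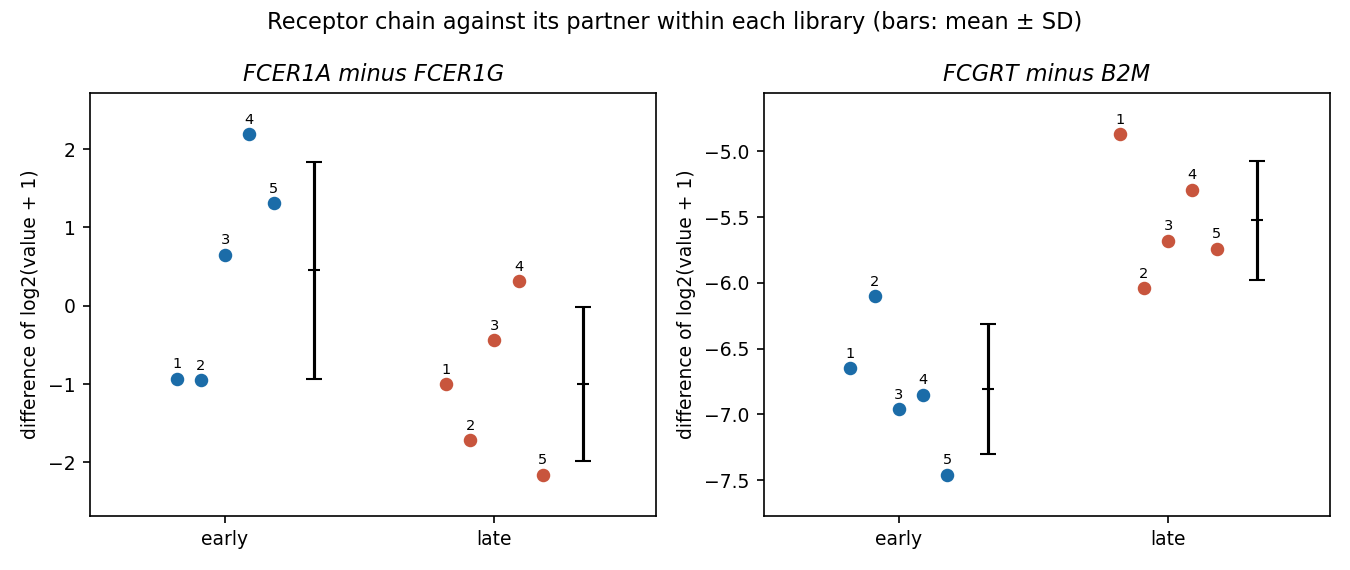
Differences of log2(value + 1) within each library, FCER1A minus FCER1G at left and FCGRT minus B2M at right, for early (blue) and late (red) libraries with mean ± SD (n = 5 each). The stages overlap at left, where early libraries 1 and 2 (-0.93 and -0.95) lie among the late ones, and do not overlap at right, where the highest early value is -6.10 and the lowest late value -6.04.

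Markers of the cells that can carry the IgE receptor were measured in the same libraries. Of 16 Langerhans and dendritic cell genes listed, 12 were in the table and tested. By limma with BY adjustment 1 was called, which is 8.33% against 2.17% of all genes tested. This gene was FLT3, the receptor for a dendritic cell growth factor, which was lower in late CCH. FLT3 fell by 2.89 on the log2 scale (SE 0.50, adjusted p 0.0434), from 128 to 447 in early to 10.9 to 86.2 in late libraries. The FLT3 call was not made by edgeR and was kept in 3 of the 10 fits with a library left out (adjusted p up to 0.135). CD1A8, a lipid-presenting molecule of the CD1 family, had a log2FC of -3.80 ± 0.92 (adjusted p 0.171), with a value of 0 in late library 4. CD86, a costimulatory molecule, had a log2FC of -0.81 ± 0.14 and thus missed the fold threshold (adjusted p 0.0460). Of the 12 genes, 7 had a negative and 5 a positive log2FC, with a median of -0.24. XCR1, a chemokine receptor of cross-presenting dendritic cells, had the highest log2FC, 2.44 ± 0.84 (adjusted p 0.683). CCR7, the receptor that guides dendritic cells and lymphocytes to lymph nodes, had a log2FC of 2.38 ± 0.63 and IRF8, a transcription factor of dendritic and B cells, of 1.27 ± 0.33 (adjusted p 0.252 and 0.217). By edgeR, 0 genes of the list were called, and by DESeq2 2 higher (CCR7 and IRF8) and 2 lower (CD1A8 and FLT3). DESeq2 called 6.54% of all genes. With Benjamini-Hochberg (BH) adjustment, limma called CCR7 and IRF8 higher and CD1A8, FLT3 and BATF3 lower. This was 41.7% of the list, against 9.04% of all genes tested. The summed level of the list was 3411 to 6255 in early and 2895 to 4168 in late libraries, and the defining markers CD207 and CD1A9 were not analysed here.

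Of 13 mast cell and basophil genes, 11 were in the table and 6 were tested. By limma with BY or BH adjustment, by edgeR and by DESeq2, 0 were called. At an unadjusted p of at most 0.05, 3 were lower, where 30.9% of all genes tested passed in either direction. The median log2FC of the 6 genes was -1.23, against -0.004 for all genes tested. The summed level was 259 to 1095 in early and 106 to 327 in late libraries, of which HPGDS, the prostaglandin D2 synthase of hematopoietic cells, made up the largest part on average. CPA3, a mast cell carboxypeptidase, reached 1.81 to 69.8 in early and 0 to 11.9 in late libraries (log2FC -2.14 ± 0.90, adjusted p 1). KIT, the receptor for stem cell factor, had a log2FC of 0.70 ± 0.81 and CMA1, the mast cell chymase, of 0.92 ± 0.63, both with an adjusted p of 1. Relative to FLT3 in the same library, FCER1A was at -1.38 ± 1.39 in early and -0.96 ± 1.26 in late CCH on the log2 scale. Relative to CD1A8 it was at -0.49 ± 0.91 in early and 0.84 ± 2.58 in late CCH, with CD1A8 at 0 in late library 4. Both differences are given without a test. The part of dendritic cell and mast cell numbers in the fall of FCER1A was not tested.

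Profiles across the 10 libraries were compared with that of FCER1A by the mean absolute difference of centered log2 values, over 11117 other genes with a name. The most similar genes were CCDC92 (0.470), SHC4 (0.514), IL13RA1 (0.517), XPO4 (0.518) and UBL3 (0.560), against a median of 1.28 for all genes compared. IL13RA1 encodes a receptor chain for interleukin 13, SHC4 an adaptor of receptor tyrosine kinases, XPO4 a nuclear transport receptor and UBL3 a ubiquitin-like protein. All 5 were lower in late CCH and called, with a log2FC from -2.71 for SHC4 to -1.60 for UBL3. A gene with this kind of profile must differ between the stages, so these calls add nothing to the likeness. IL13RA1 held 974 to 1413 in early and 248 to 411 in late libraries, a level well above that of FCER1A.

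**Figure D3:**
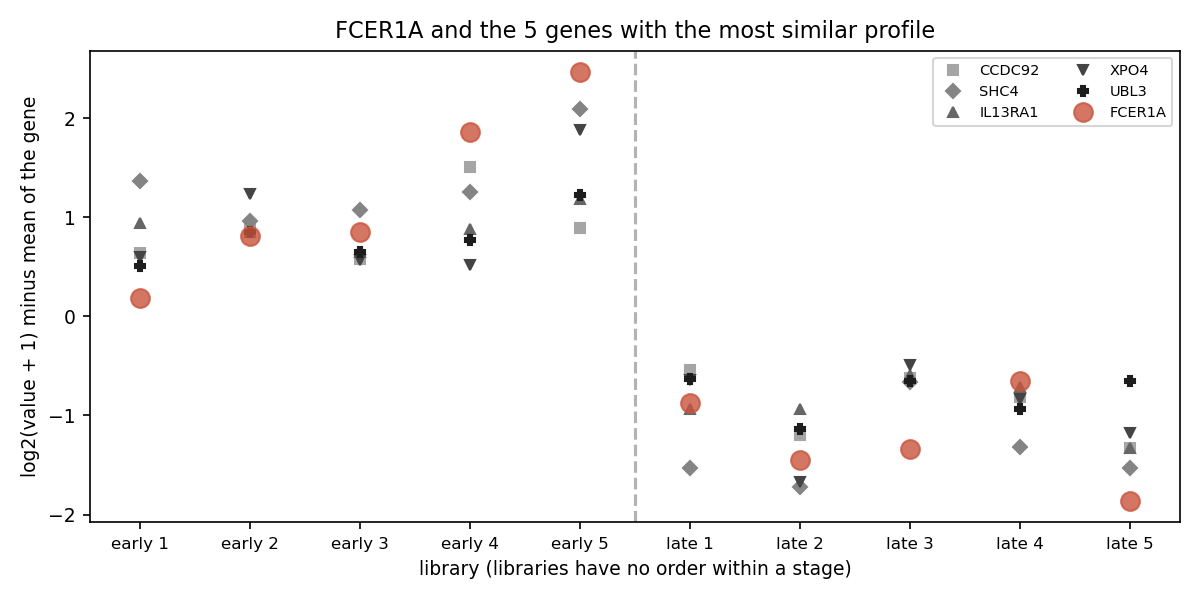
Log2(value + 1) minus the mean of each gene over all 10 libraries, for FCER1A (large red circles) and the 5 genes with the most similar profile (gray and black symbols). Early libraries are left and late libraries right of the dashed line, and all 6 genes lie above 0 in early and below 0 in late libraries, with FCER1A highest in early libraries 4 and 5.

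FCER2 varied widely between single libraries, and a difference between the stages was left undetermined. Its values were 73.3, 149.8, 17.2, 9.45 and 2566 in early libraries 1 to 5, and 35.8, 80.9, 156, 92.0 and 63.0 in late libraries 1 to 5. Early library 5 stood apart, at 17.1 times the next early library and 16.5 times the next highest of all libraries. The medians of the stages were close, 73.3 in early and 80.9 in late CCH, while the means were 563 ± 1121 and 85.5 ± 44.7. The log2FC was -0.19 ± 1.16 (95% interval -2.70 to 2.32, adjusted p 1). Without early library 5 it became 1.02 and without late library 1 it became 0.08, in both cases with an adjusted p of 1. The spread between early libraries, an SD of 3.12 on the log2 scale, lay above that of 99.9% of all genes tested, whose median was 0.42.

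FCER2 was the only gene tested whose value in early library 5 was at least 10 times that in every other library, a comparison chosen after its values were seen. The next ratio was 4.70, for ZPLD1. In the same library, several B cell genes were low. MS4A1, which encodes the B cell antigen CD20, reached 4.29 (0 to 13.4 in early libraries) and CD79A 32.2 (32.2 to 169). Both CD79B and PAX5 were at 0, as was CD79B in early library 4 and PAX5 in early library 3. BANK1, another B cell gene of the list, was at 173.9, its highest early value. CR2, the complement receptor of B cells and follicular dendritic cells, was at 4.29, its early median. CXCL13, the chemokine that draws B cells into follicles, was at 150.3, within an early range of 7.62 to 1586. The summed level of all 11 B cell genes was 759 in early library 5, the lowest of the early libraries, and that of 4 follicular dendritic cell genes was 1069, within the early range of 575 to 7429. In late CCH, B cell genes were most abundant in library 3 (sum 4170), where FCER2 had its highest late value of 156.

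Of the 9 B cell genes tested, 0 were called between the stages by limma with BY adjustment and 0 by edgeR, with a median log2FC of 2.16. At an unadjusted p of at most 0.05, 6 were higher, where 30.9% of all genes tested passed in either direction. The summed B cell level was 759 to 1088 in early and 762 to 4170 in late libraries. CD79A, a chain of the B cell antigen receptor, was at 32.2 to 169 in early and 236 to 656 in late libraries. DESeq2 called 3 of the 9 higher in late CCH, CD79A, MS4A1 and CD79B, and limma with BH adjustment 4. The shares of all genes tested called higher were 3.88% and 5.53%. All late values of CD79A, MS4A1 and CD79B lay above all their early values, as for 5.91% of all genes tested. The part of B cells and follicular dendritic cells in the FCER2 values was not tested in any library.

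**Figure D4:**
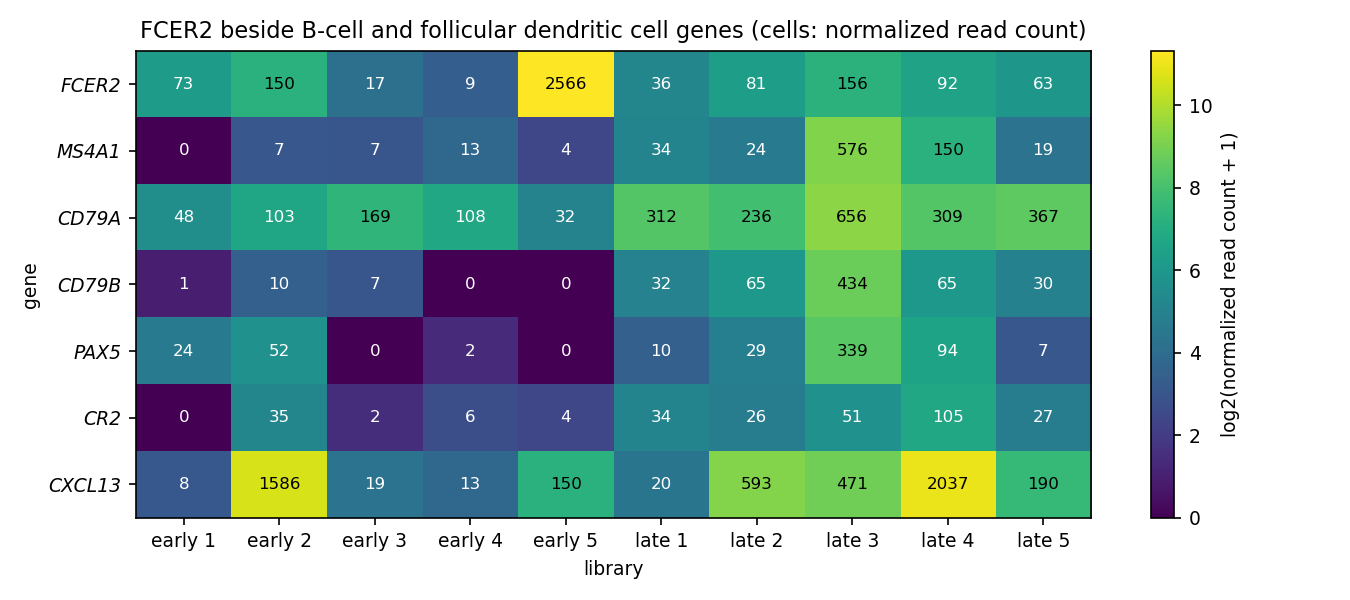
Normalized read counts of FCER2, 4 B cell genes (MS4A1, CD79A, CD79B and PAX5), CR2 and CXCL13 in the 10 libraries, printed in each cell and colored on a log2(value + 1) scale. Early library 5 holds 2566 for FCER2 beside 0 for CD79B and PAX5, whereas the highest values of MS4A1, CD79A, CD79B and PAX5 are in late library 3.

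FCGR1A varied widely in early CCH and did not pass the test between stages. The values were 66.6, 352, 36.2, 7.88 and 114 in early libraries 1 to 5, and 50.7, 126, 37.8, 40.9 and 52.5 in late libraries 1 to 5. The early values enclosed all late values, from 7.88 in library 4 to 352 in library 2. The mean was 115 ± 138 in early and 61.5 ± 36.4 in late CCH (SD, n = 5 each). The log2FC was -0.13 ± 0.76 (95% interval -1.79 to 1.52, adjusted p 1), and it became 0.49 without early library 2. The early SD of 1.97 on the log2 scale was above that of 98.3% of all genes tested.

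The library with the most FCGR1A in early CCH, library 2, was also that with the highest summed level of macrophage genes. The 15 macrophage and monocyte genes summed to 16106 in early library 2 and to between 3247 and 7718 in the other early libraries. CD163, a scavenger receptor of macrophages, was at 1137 there and at 70.1 to 181 in the other early libraries. The 8 neutrophil genes summed to 9379 in early library 2 and to 9002 in late library 2, where FCGR1A had its highest late value of 126. Nearly all of these sums came from S100A8, S100A9 and S100A12, which keratinocytes can express as well. CSF3R, the receptor for a neutrophil growth factor, was at 67.9 in early library 2 and 35.2 in late library 2, below late library 1 at 39.8, and CXCR2, MPO, ELANE and CAMP stayed below the filter. Early library 1 held a neutrophil gene sum of 8078, a keratinocyte gene sum of 15195 and a CSF3R value of 3.81, with FCGR1A at 66.6. In late CCH the macrophage sum was 8840 to 15450, with a median log2FC of 1.13. Late library 2, with the highest late FCGR1A, had a macrophage sum of 9032, near the lower end of that range. Of 14 genes tested, 0 were called by limma with BY adjustment and by edgeR, 3 were higher with BH adjustment and 1 by DESeq2 (MSR1). At an unadjusted p of at most 0.05, 6 were higher and 1 lower, where 30.9% of all genes tested passed in either direction. A positive log2FC was found for 12 of the 14 macrophage genes, against 49.8% of all genes tested. FCGR1A had -0.13 by limma, -0.90 by edgeR and -0.91 by DESeq2. Its limma interval of -1.79 to 1.52 includes the macrophage median. The part of these cells in the FCGR1A values was not tested.

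FCGRT was the Fc receptor gene with the highest log2FC, but was not called. The values were 126, 311, 160.1, 140.2 and 82.7 in early libraries 1 to 5, and 480.3, 218, 319.6, 482 and 354 in late libraries 1 to 5. The stages overlapped only by early library 2, which at 311 lay above late library 2 at 218. The mean was 164 ± 86.9 in early and 371 ± 112 in late CCH (SD, n = 5 each), 2.26 times higher in late. The log2FC of 1.25 ± 0.32 (95% interval 0.56 to 1.95) had a BY-adjusted p of 0.217, and a BH-adjusted p of 0.0217. Under BH adjustment 5.53% of all genes tested had a higher and 3.52% a lower call, together 9.04%. Without early library 2 FCGRT was called with BY adjustment as well (log2FC 1.52, adjusted p 0.0480).

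B2M, the light chain of the neonatal Fc receptor and of all class I molecules, was among the most abundant genes and had a log2FC of -0.03 ± 0.19 (95% interval -0.44 to 0.38). It reached 12676 to 21358 in early and 14063 to 18917 in late libraries. FCGRT minus B2M on the log2 scale was -6.80 ± 0.50 in early and -5.52 ± 0.45 in late CCH, given without a test. Every late value of this difference lay above every early value, though by only a small margin. Macrophages and endothelium are known for high levels of FCGRT. The 9 endothelial genes summed to 540 to 1022 in early and 703 to 1381 in late libraries, with a median log2FC of 0.77. By limma, edgeR or DESeq2, 0 of the 9 were called. At an unadjusted p of at most 0.05, 4 were higher, where 30.9% of all genes tested passed in either direction. The macrophage sum was 3247 to 16106 in early and 8840 to 15450 in late libraries. The part of either cell type in the FCGRT values was not tested.

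The order of the receptors by level changed between libraries in both stages, with only the highest place constant in late CCH. FCGRT was the most abundant Fc receptor gene in each late library, and FCER1A the least abundant in late libraries 1, 2, 3 and 5. In early CCH the most abundant was FCGRT in libraries 1 and 3, FCGR1A in library 2, FCER1A in library 4 and FCER2 in library 5. By the median of the stage, the early order was FCGRT (140.2), FCER1G (89.5), FCER1A (74.2), FCER2 (73.3) and FCGR1A (66.6). All neighbors in this order overlapped in their ranges. The late order was FCGRT (354), FCER2 (80.9), FCGR1A (50.7), FCER1G (44.7) and FCER1A (15.5). Only the highest place was set apart there, with the lowest FCGRT value (218) above the highest value of FCER2 (156).

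Other adaptor chains of immune receptors were tested in a list fixed together with FCER1G, MS4A2 and B2M. Of the 6 genes, 0 were called by limma with BY adjustment and by edgeR, and 1 by DESeq2 (HCST). At an unadjusted p of at most 0.05, 2 were higher and 3 lower, where 30.9% of all genes tested passed in either direction. TYROBP, the adaptor of many myeloid and natural killer receptors, was at 4304, 3015, 3413, 3908 and 2961 in early and 1556, 1781, 2572, 2161 and 1947 in late CCH. All its late values lay below the early ones, as for 6.05% of all genes tested, with a log2FC of -0.82 ± 0.17 (adjusted p 0.0805). CD247, the zeta chain of T cell and natural killer receptors, was at 8.57 to 299 in early and 421 to 674 in late libraries, with a log2FC of 2.90 ± 0.77 (adjusted p 0.252). HCST, an adaptor of the receptor NKG2D, had a log2FC of 2.40 ± 0.48 (adjusted p 0.0760). Both were higher in late CCH under BH adjustment, and all late values of both lay above all early ones, as for 5.91% of all genes tested. In every library the read count of TYROBP lay far above that of FCER1G.

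**Figure D5:**
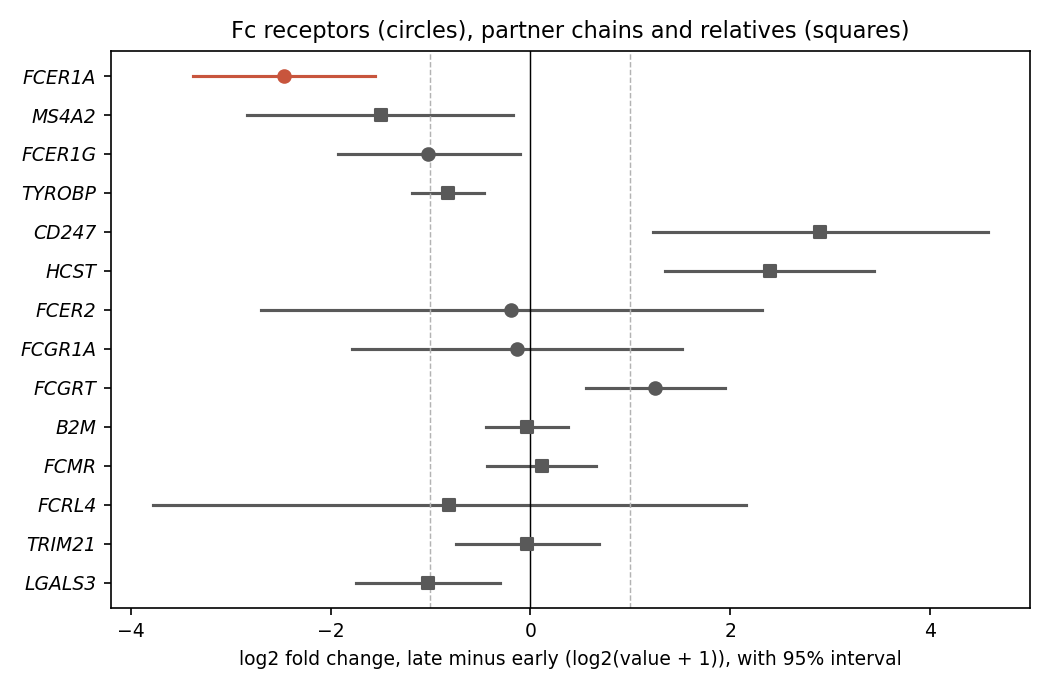
Log2 fold change (late minus early, log2(value + 1) scale) with 95% interval for the 5 Fc receptor genes (circles) and for partner chains, adaptors and other antibody-binding genes (squares). FCER1A (red, -2.47) is the only gene called, and the intervals of FCER2 (-2.70 to 2.32), FCGR1A (-1.79 to 1.52) and FCRL4 are wide.

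Other antibody-binding and Fc receptor-like genes did not pass the test. Of 13 listed, 9 were in the table, 4 were tested and 0 were called by limma, edgeR or DESeq2. At an unadjusted p of at most 0.05, 1 (LGALS3) was lower, where 30.9% of all genes tested passed in either direction. FCMR, the receptor for IgM, was at 432 to 893 in early and 446 to 1125 in late libraries (log2FC 0.12 ± 0.25). Its level was thus above that of FCER1A and FCER1G in every library. TRIM21, a cytosolic antibody receptor, had a log2FC of -0.03 ± 0.33 and LGALS3, a lectin that also binds IgE, of -1.02 ± 0.33 (adjusted p 0.562). FCRL4, a receptor of the Fc receptor-like family, was at 0, 142, 85.9, 0.788 and 50.5 in early and 35.8, 0.951, 4.84, 12.3 and 11.5 in late libraries, a spread that left its log2FC of -0.81 ± 1.37 undetermined. PIGR, FCRL5, FCRL6, FCRLA and FCRLB stayed below the filter. Of 9 other receptors that pair with FCER1G, only OSCAR was tested (log2FC 0.67 ± 0.88), and NCR1 and NCR3 stayed below the filter.

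Signal transduction downstream of activating Fc receptors runs through the kinases LYN and SYK to phospholipase C gamma and phosphoinositide 3-kinase. Of 30 genes listed, 28 were tested, and in late CCH 2 were called higher and 1 lower, which is 10.7% against 2.17% of all genes tested. The median log2FC of the list was 0.09. PLCG1, the phospholipase C of T cells and many other cells, rose from 83.9 ± 34.4 to 268 ± 74.8 (log2FC 1.71 ± 0.28, adjusted p 0.0363). PIK3CD, the delta catalytic subunit of phosphoinositide 3-kinase in leukocytes, rose from 312 ± 49.8 to 641 ± 148 (log2FC 1.02 ± 0.18, adjusted p 0.0436), and it was not called by edgeR, with a pseudocount of 10 or without a filter. PIK3CG, the gamma catalytic subunit, fell from 960 ± 215 to 350.3 ± 56.9 (log2FC -1.44 ± 0.17, adjusted p 0.00812). With a library left out, PIK3CG stayed called in 10 of 10 fits, PLCG1 in 2 and PIK3CD in 1.

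SYK and LYN, named after their values were seen, had log2FC values of opposite sign and were not called. SYK was at 379, 415, 346, 489.9 and 497 in early and 735, 796, 922, 849 and 563 in late libraries (log2FC 0.85 ± 0.16, adjusted p 0.0621). LYN was at 554, 866, 675, 503 and 768 in early and 389.8, 356, 448, 466 and 377 in late libraries (log2FC -0.70 ± 0.17, adjusted p 0.160). The stages did not overlap for either gene. Of the 28 genes of the list tested, 6 had all late values above and 2 all late values below the early ones. The shares of all genes tested were 5.91% and 6.05%. Of 12 genes tested of inhibitory signaling, 0 were called by limma with BY adjustment and by edgeR, and 1 by DESeq2 (CBLB). At an unadjusted p of at most 0.05, 4 were higher and 1 lower, where 30.9% of all genes tested passed in either direction. The median log2FC of the list was -0.04, with a range from -0.46 for PTPN6, a phosphatase, to 1.07 for CBLB. CBLB, a ubiquitin ligase, was higher in late CCH under BH adjustment.

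Several of these genes are also used by lymphocytes. The 11 T cell genes summed to 83.8 to 2561 in early and 3901 to 6592 in late libraries, with 1 called (CD6, by edgeR as well) and all 11 higher in late CCH under BH adjustment. The cytotoxic and natural killer cell genes summed to 179 to 2879 in early and 3487 to 8862 in late libraries. Of 9 tested, 2 were called higher by limma (KLRK1 and EOMES), 6 with BH adjustment and 0 by edgeR. DESeq2 called 6 T cell genes and 5 cytotoxic or natural killer cell genes higher. Of all genes tested, limma called 1.06% higher with BY and 5.53% with BH adjustment, edgeR 0.653% and DESeq2 3.88%. T cell genes were present in early libraries too, most in library 3 (2561). The part of lymphocytes in the values of CD247, HCST, PLCG1 and PIK3CD was not tested. By limma with BY adjustment, edgeR and DESeq2, 0 genes were called of 9 keratinocyte genes, of 5 plasma cell genes, of 4 follicular dendritic cell genes and of 4 neutrophil genes tested. At an unadjusted p of at most 0.05, 1 keratinocyte gene was lower and 2 plasma cell and 2 follicular dendritic cell genes were higher. With BH adjustment, TP63 of the keratinocyte list was lower, and PRDM1 (plasma cell), CR2 and CLU (follicular dendritic cell) were higher. These thresholds were passed by 30.9% and 9.04% of all genes tested. The median log2FC was -1.1 for keratinocyte genes (all 9 negative) and 2.53 for follicular dendritic cell genes (all 4 positive). It was 0.39 for plasma cell and -0.97 for neutrophil genes. The keratinocyte sum was 1067 to 17702 in early and 777 to 9095 in late libraries. The only eosinophil gene tested, ALOX15, had a log2FC of 0.30.

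Genes next to FCER1A and FCGRT on the chromosome were looked up as well, and those named here were not called. In the RefSeq annotation of the dog assembly UU_Cfam_GSD_1.0, used for neighborhood only, FCER1A lies next to ACKR1, a chemokine receptor of vessels and red cells, with a log2FC of 0.21 and an adjusted p of 1. FCGRT lies next to RCN3 (log2FC 0.49, adjusted p 1). Neither of these neighbors overlapped its Fc receptor gene in that annotation.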

How the data were processed

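RNA of 10 FFPE tumors, 5 early and 5 late CCH, was sequenced with QuantSeq 3′. According to the submitters' processing notes and the study's methods, the authors trimmed reads with Cutadapt, aligned them with STAR to CanFam3.1, counted them with featureCounts and scaled them with DESeq2 (versions not given in the sources used here). Reads with several mapping places were shared among them, so near-identical genes are uncertain. The deposited signal is a normalized read count, the reads divided by a size factor. Whole reads were recovered for 100% of the 166096 values above 0 (tolerance 0.001). Column names give the stage but not the sample. Of 21 columns, 11 match no sample and were not used. Breed, age and sex differ among the samples of a stage, which were taken as separate dogs.

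The main test was limma (trend of variance with mean) on log2(value + 1), with all 10 libraries, no covariates and the 12397 genes that reached 10 in 5 or more libraries. BY adjustment covered all of these, with thresholds of 0.05 and a log2FC of 1. The log2(value + 1) scale understates changes of genes with low values. FCER1A minus FCER1G was compared with an exact permutation test, and the planned test of FCGR2B minus FCGR3A could not be run. Alternatives were a pseudocount of 0.5 or 10, no filter or a mean of at least 50, scaling to column totals, TMM or RLE, BH adjustment, edgeR and DESeq2 on the recovered reads, and leaving out each library. Scripts were tested on simulated data. R 4.3.3, limma 3.58.1, edgeR 4.0.16, DESeq2 1.42.0 and scipy 1.17.1 were used.

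The genes and lists were chosen with earlier results of these data known. Of each list, called genes and those with the highest and lowest log2FC could be named, and any gene among subunits, other antibody-binding genes and defining markers. The 5 genes most like FCER1A leave out symbols that start with LOC. Of 23266 symbols, 19767 were found in the RefSeq table.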

Additional observations from a re-analysis of the deposited data

Results flagged for a closer look

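Each stage's 5 values of the 5 Fc receptor genes and of FCER1A minus FCER1G were examined for a library far from the others, by its gap to the nearest library relative to the range of the stage (critical value 0.71). Of 12 groups of values, 2 exceeded it. About 0.6 would be expected for independent groups of normally distributed values. The genes were examined as read counts without a log scale, so that number is only a rough guide. FCER2 in early library 5 was at 2566, with the next early library at 149.8 and a relative gap of 0.945. FCGR1A in late library 2 was at 126, with the next late library at 52.5 and a relative gap of 0.833.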

How the results depend on the processing

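Of all genes tested, 131 had a call of higher and 138 of lower in late CCH. With a pseudocount of 10, 210 were called higher. With BH adjustment the counts were 685 and 436, with DESeq2 480 and 330, and with edgeR 81 were called higher. Leaving out a library gave 17 to 143 higher and 31 to 153 lower. Scaling to column totals moved the share of higher calls from 48.7% (131 to 138) to 64% (169 to 95), and the median log2FC of all genes from -0.004 to 0.085. Among the Fc receptor genes, 0 were called higher, but 1 (FCGRT) with BH adjustment, and 0 to 1 when a library was left out. The single lower call (FCER1A) became 0 to 1 when a library was left out. FCER1A kept its call in the 10 other alternatives, with a log2FC of -2.70 to -2.01. FCER1A minus FCER1G was -1.81 to -1.02 without a library (exact p 0.0635 to 0.206) and -1.48 and -1.15 with the other pseudocounts, never past the threshold. FCER2 ranged from -0.96 to 1.02 without a library and changed sign without early library 5 (1.02) and late library 1 (0.08), with -2.71 in edgeR, and DESeq2 gave no p-value for it. FCGR1A was at -0.90 in edgeR and -0.91 in DESeq2, ranged from -0.83 to 0.49 without a library, and changed sign without early library 2 (0.49), early library 5 (0.09) and late library 3 (0.0). Neither was called in any fit. The cause of these changes was not tested, beyond the smaller number of libraries. The 3 calls in activating signaling became 6 with BH adjustment or DESeq2, and 1 without early library 1 or 5 or late library 1, 2, 4 or 5. FLT3, KLRK1 and EOMES were not called by edgeR. No paired analysis was possible because no replicate number stands in the column names and the tumors come from different dogs. At these depths, genes with values of a few reads per library, such as MS4A2 in late CCH, are measured with little precision, and intervals cover the spread of 5 libraries a stage.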
